A study of Saccharomyces cerevisiae with 10 samples.

Results

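The step between 30 and 60 min of a heat shock time course in Saccharomyces cerevisiae was examined on 4 of the 10 arrays of the series, chosen by the strain and time in their labels. At 60 min there was 1 array of a KIN82 deletion and 1 of the wild type, and at 30 min likewise 1 of each. KIN82 encodes a putative protein kinase. The wild type is strain DBY8778, taken as such because the labels speak of wild type and kin82 mutant and name no other strain. The deletion array at 60 min carries the word repeat in its title and that at 30 min does not, so the step in the deletion may join separate runs. The deletion array from the start of the time course carries the word too. A likeness of the deletion at 60 min to its start may therefore reflect a shared run. All DBY8778 titles carry the tag heat_shock2.

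The labels give the minutes of heat shock, with no temperature and no word on a return to cooler medium, and "recovery" here names only the step from 30 to 60 min. Whether 1 culture was sampled over time or a culture was grown for each time is not stated. Every array compared the RNA of 1 sample with a reference of unstated makeup. A value is read here as the log2 ratio of sample to reference, after centring on the array's median. The base and direction of the ratio are not stated. The level of KIN82 was not used here and the deletion stands as labelled.

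When yeast is heated, the transcription factor Hsf1 raises genes for chaperones, which refold or hold damaged proteins, and Msn2 and Msn4 raise a wide set of general stress genes. At the same time the genes for ribosomal proteins and for the factors that build ribosomes fall, and cells pause in the G1 phase of the cell cycle. Much of this response is transient, and genes move back towards their earlier level while the heat lasts. Histone genes and the targets of the factors SBF and MBF are expressed when cells pass from G1 into S phase. The phosphate regulon holds the acid phosphatases, phosphate transporters and polyphosphate enzymes under the factor Pho4.

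Between 30 and 60 min, 8 of 9 tested histone genes, 28 of 107 ribosome biogenesis genes and 5 of 11 pyrimidine genes rose, while 6 of 37 chaperones and 7 of 47 general stress genes fell. Of 5730 genes tested, 142 rose (2.48%) and 70 fell (1.22%) at 60 min against 30 min (limma, adjusted p under 0.05), so 3.7% of the genes were called. Every called gene moved at least 2-fold, the largest rise being 3.19 on the log2 scale and the largest fall -2.68. The smallest SE of any tested gene was 0.269, so the threshold itself left smaller changes uncalled and the 2-fold size is no separate result. None of the 212 called genes moved in opposite directions in the 2 strains. In 204 of them both 60 min arrays lay outside the range of both 30 min arrays, a pattern that 21.8% of all tested genes showed upward and 21.7% downward. The call was made on the mean of the same steps, so this agreement largely follows from it and is no separate evidence. Across all tested genes the median change was -0.01, and the step was positive in both strains in 31.3% of them and negative in both in 32.5%.

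The spread of values over genes within an array was narrower at 60 min than at 30 min. The SD of the log2 ratios over genes was 0.553 in the deletion and 0.639 in the wild type at 60 min, against 0.873 in the deletion and 0.982 in the wild type at 30 min. At 0 min it was 0.656 in the deletion and 0.620 in the wild type. Quantile normalization, which gives every array the same spread, left 44 called genes, 31 higher and 13 lower, of which 41 were among the 212. The count also rested on each of the 4 arrays: 28 genes were called without the wild-type array at 30 min, 8 without the wild-type array at 60 min, and 3 without either deletion array. With the strain left out of the model 0 genes passed (limma, 639 at an unadjusted p under 0.05).

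**Figure D1:**
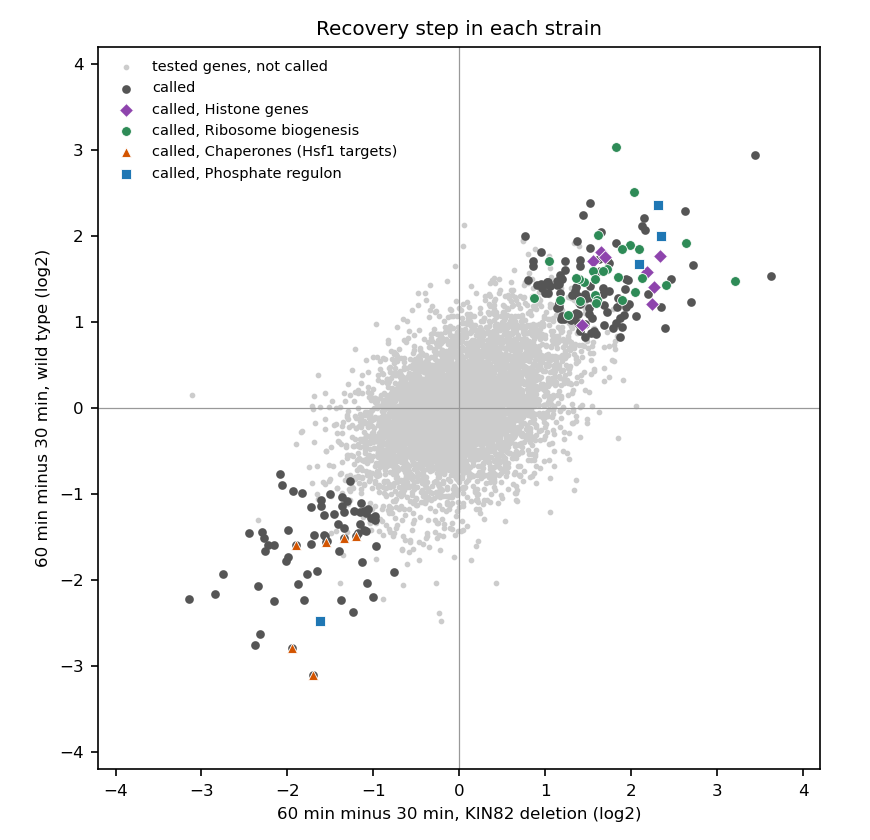
Change from 30 to 60 min in the KIN82 deletion (horizontal axis, log2) against that in the wild type (vertical axis, log2), 1 point for each of the 5730 tested genes, with called genes coloured by list. All 212 called genes lie in the quadrants where the strains share a sign, with histone, ribosome biogenesis and 3 phosphate genes above 0 on both axes and chaperones below 0 on both.

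The largest rise was that of URA1, the dihydroorotate dehydrogenase of pyrimidine synthesis. In the deletion it read 0.48 at 60 min and -2.96 at 30 min, and in the wild type -0.83 at 60 min and -3.78 at 30 min. Both 60 min values lay far above both 30 min values, a rise of 3.19 ± 0.32 (log2, SE of the fit) or 9.15-fold (limma, adjusted p = 0.000305). The largest fall was that of ALD4, the mitochondrial aldehyde dehydrogenase. It read 0.82 at 60 min and 3.96 at 30 min in the deletion, and 1.74 at 60 min and 3.96 at 30 min in the wild type. The strains coincided at 30 min and both came down, by 6.43-fold (-2.68 ± 0.35, limma, adjusted p = 0.00295).

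The 10 largest rises held, beside URA1, the CTP synthase URA7 (2.46 ± 0.30) and the GMP synthase GUA1 (2.18 ± 0.30), both enzymes of nucleotide synthesis. Ribosome assembly was represented by ENP2 (2.43 ± 0.37), NSR1 (2.34 ± 0.39), HAS1 (2.28 ± 0.36) and HCA4 (2.27 ± 0.38). The others were the acid phosphatase PHO5 (2.34 ± 0.31), the pentose phosphate enzyme RKI1 (2.19 ± 0.39) and the reading frame YGR160W (2.58 ± 0.46). YGR160W lies across NSR1 on the other strand, and the 2 cannot be told apart without knowledge of the probe strand. Adjusted p-values of the 10 ranged from 0.000305 to 0.00787 (limma), and in all 10 both 60 min arrays stood above both 30 min arrays. The 10 were chosen by the size of this change and by a shared sign, so that separation is no further evidence.

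The 10 largest falls included the aromatic amino acid catabolism genes ARO9 (-2.57 ± 0.39) and ARO10 (-2.50 ± 0.38). ARO9, an aromatic aminotransferase, read 1.14 at 60 min and 3.52 at 30 min in the deletion, and 0.40 at 60 min and 3.16 at 30 min in the wild type. ARO10, the decarboxylase of the next step, read 0.67 at 60 min and 3.51 at 30 min in the deletion, and 0.75 at 60 min and 2.91 at 30 min in the wild type. Both genes were thus about as high in one strain as in the other at 30 min and low in both at 60 min. The hexose transporter HXT7 (-2.48 ± 0.36), which has the near-identical copy HXT6, and the carbonic anhydrase NCE103 (-2.21 ± 0.35) fell as well. The others were the chaperones SSA3 and HSP26, the stress gene HOR7, the glycogen debranching enzyme GDB1 and the nucleotidase PHM8, described with their groups. Adjusted p-values of the 10 ranged from 0.00295 to 0.0284 (limma), and again no gene had a 60 min value inside its 30 min range, which the choice of genes favours.

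**Figure D2:**
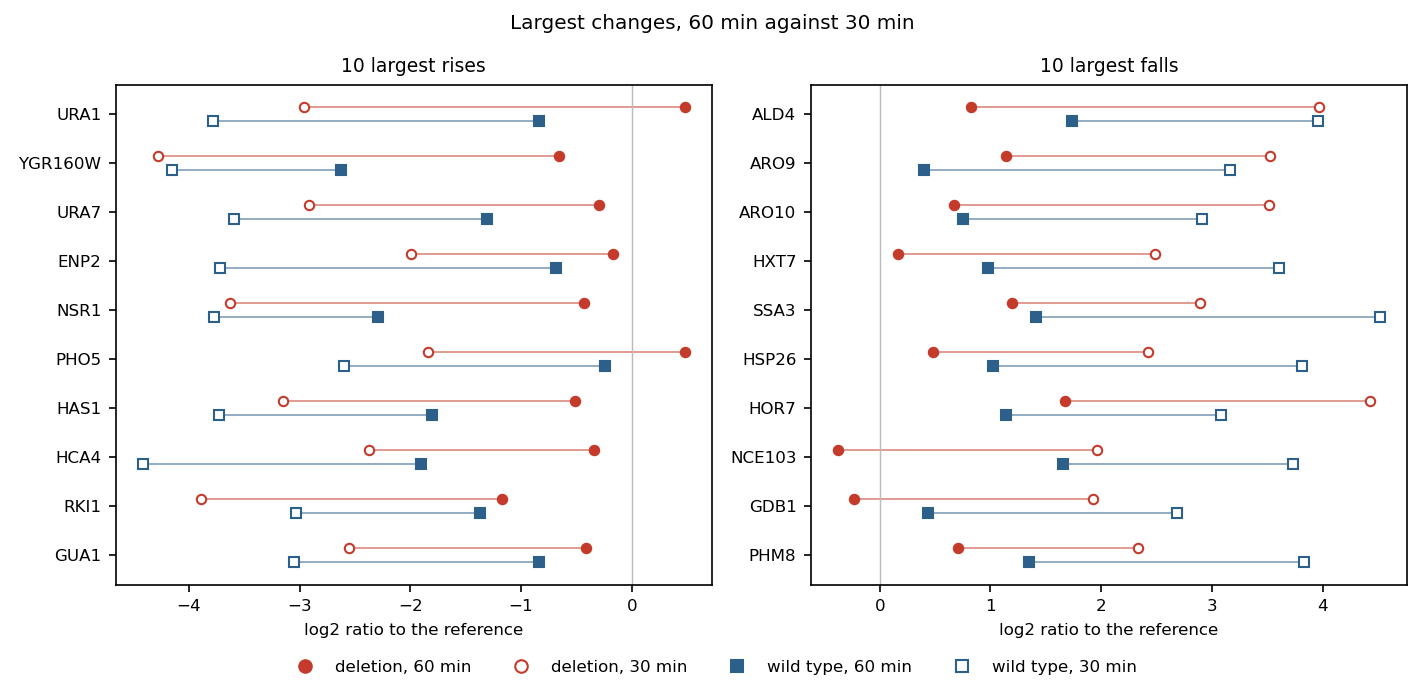
Log2 ratio to the reference of the 10 genes that rose most (left) and the 10 that fell most (right), with filled symbols for 60 min, open symbols for 30 min, circles for the KIN82 deletion and squares for the wild type. In each gene both filled symbols lie on the same side of both open ones, and rises start far below 0 while falls start far above it.

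Among the genes for building ribosomes every call was a rise. Of 107 tested ribosome biogenesis genes 28 rose (26.2%, against 2.48% of all genes) and 0 fell, and 97 had a positive step in both strains. The median of the list over the mean of both strains was -0.61 at 0 min, -2.75 at 15 min, -1.79 at 30 min and -0.80 at 60 min, and the median change from 30 to 60 min was 0.96. HCA4, an RNA helicase of the small subunit processome, read -0.34 at 60 min and -2.37 at 30 min in the deletion, and -1.90 at 60 min and -4.42 at 30 min in the wild type. HAS1, a helicase that acts on both subunits, read -0.51 at 60 min and -3.15 at 30 min in the deletion, and -1.80 at 60 min and -3.73 at 30 min in the wild type. In both genes the deletion stood nearer to the reference at 60 min than the wild type did, but this was so before heat as well. At 0 min HCA4 read 0.15 in the deletion and -1.27 in the wild type. HAS1 read -0.11 in the deletion and -1.32 in the wild type at 0 min.

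The snoRNP proteins NOP58 (1.82) and NOP56 (1.81) and the large subunit factors BRX1 (1.97), ERB1 (1.94) and NOP7 (1.87) were among the others called. DBP2, an RNA helicase, was not called, reading -3.50 in the deletion and -4.25 in the wild type at 60 min, and -4.92 in the deletion and -4.29 in the wild type at 30 min. Its change over the step was 0.73 ± 0.39 (limma, adjusted p = 0.351), and its fitted difference of 60 min minus 0 min was -3.29 (limma, adjusted p = 0.000481). It was the only one of the 107 called lower at 60 min against 0 min, where 0.856% of all genes were called lower.

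Among the RNA polymerases that make ribosomal and transfer RNA, 6 of 35 subunit and factor genes rose (17.1%, against 2.48% of all genes) and 0 fell. They were the polymerase I genes RPA43 (1.68), RPA190 (1.56), RPA49 (1.30) and RPA34 (1.21), the polymerase III gene RPC34 (1.54) and the polymerase I initiation factor gene RRN11 (1.50). Under quantile normalization 2 ribosome biogenesis genes and 0 of these polymerase genes were called, and the median change of the ribosome biogenesis list was 0.41.

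A smaller share of the cytosolic ribosomal protein genes passed the test. Of 136 tested, 13 rose (9.56%, against 2.48% of all genes) and 0 fell, although 123 had a positive step in both strains, with a median change of 0.75. The list median was 0.43 at 0 min, -1.76 at 15 min, -1.23 at 30 min and -0.48 at 60 min. RPS31, which encodes a ubiquitin fused to a small subunit protein, rose by 1.86 ± 0.39, RPS24A by 1.84 ± 0.39 and RPL9A by 1.73 ± 0.33. RPS24A read 0.57 at 60 min and -0.88 at 30 min in the deletion, and 0.98 at 60 min and -1.27 at 30 min in the wild type. Its mean was 0.77 at both 0 and 60 min, but the strains differed. At 0 min RPS24A read 1.15 in the deletion and 0.395 in the wild type. The deletion thus ended lower than at 0 min and the wild type higher. At 60 min 7 of the 136 were still lower than at 0 min, against 0.856% of all genes: RPS2, RPS1B, RPS13, RPL38, RPS15, RPL14A and RPL16B. Among these 7, RPS13 was lowest at -1.80 and RPL16B least low at -1.31. Many ribosomal protein genes have a near-identical copy, and probes may have measured both. With quantile normalization 1 member was called.

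Of the other translation lists, 2 of 40 translation factors rose (5%, near the 2.48% of all genes), the initiation factor TIF2 (1.32 ± 0.31) and GCD10 (1.44), which takes part in transfer RNA methylation. None of 18 aminoacyl-tRNA synthetases and none of 68 mitochondrial ribosomal proteins passed in either direction. The synthetases had a positive step in both strains in 14 of 18 genes, with a median of 0.59, while the mitochondrial list had a median of -0.11.

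Pyrimidine genes were called in a larger share than any ribosomal list: 5 of 11 rose (45.5%, against 2.48% of all genes) and 0 fell. Beside URA1 and URA7 these were the uridine permease FUI1 (2.12 ± 0.31), the uracil permease FUR4 (1.66 ± 0.35) and URA2 (1.17 ± 0.30), the first enzyme of the pathway. FUI1 read 0.88 at 60 min and -1.24 at 30 min in the deletion, and 0.20 at 60 min and -1.92 at 30 min in the wild type. FUR4 read 0.90 at 60 min and -0.47 at 30 min in the deletion, and 0.51 at 60 min and -1.44 at 30 min in the wild type. Both transporters thus crossed from below the reference to above it in both strains. In purine synthesis GUA1 alone of 18 rose (5.56%). With quantile normalization 3 pyrimidine genes and GUA1 were called.

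**Figure D3:**
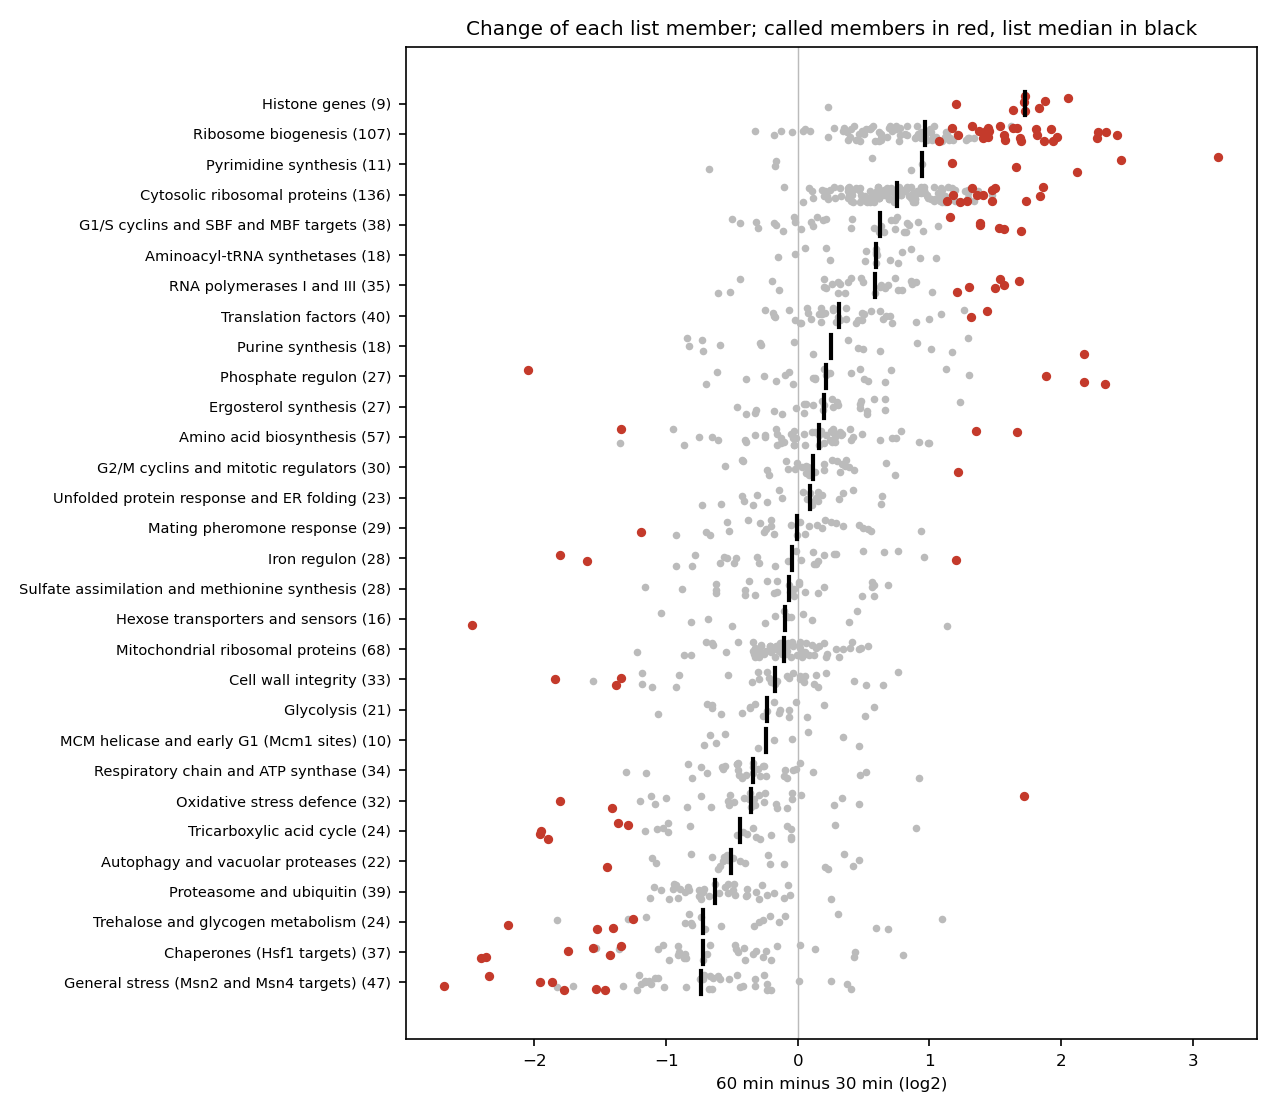
Change from 30 to 60 min (log2, both strains averaged) of every tested member of the 30 gene lists, 1 point per gene, with called genes in red, the list median as a black bar and the number of tested members in brackets. Histones, ribosome biogenesis and pyrimidine synthesis hold the highest medians, and the chaperone, general stress and trehalose and glycogen lists the lowest.

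Some chaperones fell and most were not called. Of 37 tested Hsf1 target chaperones 6 fell (16.2%, against 1.22% of all genes) and 0 rose, 29 had a negative step in both strains, and the median change was -0.72. The list median was 0.96 at 0 min, 2.62 at 15 min, 1.68 at 30 min and 0.99 at 60 min. SSA3, a stress-induced Hsp70, read 1.20 at 60 min and 2.90 at 30 min in the deletion, and 1.41 at 60 min and 4.52 at 30 min in the wild type (-2.40 ± 0.41, limma, adjusted p = 0.00556). HSP26, a small heat shock protein, read 0.48 at 60 min and 2.42 at 30 min in the deletion, and 1.02 at 60 min and 3.82 at 30 min in the wild type (-2.37 ± 0.36, limma, adjusted p = 0.00427). The strains stood further apart at 30 min than at 60 min in both genes.

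The disaggregase HSP104 (-1.75 ± 0.45), the Hsp90 HSP82 (-1.56 ± 0.30), the Hsp90 cochaperone STI1 (-1.43 ± 0.37) and the small heat shock protein HSP42 (-1.35 ± 0.32) made up the 6. AHA1, which activates the ATPase of Hsp90, was not called and read 2.64 in the deletion and 3.13 in the wild type at 60 min, and 2.86 in the deletion and 3.30 in the wild type at 30 min. At 60 min AHA1 was still 2.31 above 0 min (limma, adjusted p = 0.000481), 1 of 27 genes in that direction (0.472% of all genes). BTN2, which sequesters misfolded proteins, was lower at 60 min than at 0 min by the fit (-2.26, limma, adjusted p = 0.013). The direction of the ratios was read from the rise of this list at 15 min, so its sign there is no independent result. Under quantile normalization 1 chaperone was called and the median change of the list was -0.07.

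Some general stress genes, the targets of Msn2 and Msn4, also fell. Of 47 tested, 7 fell (14.9%, against 1.22% of all genes) and 0 rose, 41 had a negative step in both strains, and the median change was -0.73. The list median was 0.61 at 0 min, 2.91 at 15 min, 1.86 at 30 min and 0.94 at 60 min. After ALD4, the largest fall was that of HOR7, a gene also induced by osmotic stress, which read 1.68 at 60 min and 4.43 at 30 min in the deletion, and 1.14 at 60 min and 3.08 at 30 min in the wild type (-2.34 ± 0.34). TFS1 (-1.96), a carboxypeptidase inhibitor, the glutamate decarboxylase GAD1 (-1.87), MSC1 (-1.77), the aldo-keto reductase GCY1 (-1.54) and AIM17 (-1.46) followed. HSP12, a membrane stress protein, was still high: it read 2.27 in the deletion and 3.69 in the wild type at 60 min, and 2.54 in the deletion and 5.73 in the wild type at 30 min. HSP12 was higher at 60 min than at 0 min by 3.25 (limma, adjusted p = 0.0318), with a change over the step of -1.16 ± 0.68 (adjusted p = 0.407). With quantile normalization 2 general stress genes were called.

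Falls were also called among genes of carbohydrate storage and of the tricarboxylic acid cycle. Of 24 trehalose and glycogen genes 4 fell (16.7%, against 1.22% of all genes). They were GDB1 (-2.20 ± 0.50), the trehalose synthase subunits TSL1 (-1.53 ± 0.35) and TPS1 (-1.40 ± 0.28), and UGP1 (-1.25 ± 0.29), which makes UDP-glucose. TPS1 read 1.28 at 60 min and 2.85 at 30 min in the deletion, and 1.77 at 60 min and 3.01 at 30 min in the wild type. Its mean of 1.52 at 60 min was close to that of 1.68 at 0 min.

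Of 24 tricarboxylic acid cycle genes 5 fell (20.8%, against 1.22% of all genes). They were the citrate synthases CIT1 (-1.96 ± 0.36) and CIT2 (-1.37), the isocitrate dehydrogenase subunits IDH2 (-1.95 ± 0.32) and IDH1 (-1.29), and the aconitase ACO1 (-1.90 ± 0.44). CIT1 read 1.07 at 60 min and 3.33 at 30 min in the deletion, and 1.46 at 60 min and 3.12 at 30 min in the wild type. These 5 encode or duplicate the early reactions of the cycle. None of 34 respiratory chain genes, 21 glycolysis genes or 39 proteasome genes passed the test in either direction. The step was negative in both strains in 35 of 39 proteasome genes, against 32.5% of all genes, with a median change of -0.63 and a list median of 0.55 at 0 min, 1.12 at 30 min and 0.50 at 60 min. Quantile normalization left 1 trehalose and glycogen gene and 0 cycle genes called.

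In the remaining metabolic and stress lists 1 to 3 genes each were called or none, against 2.48% of all genes called higher and 1.22% called lower. Among 32 oxidative defence genes the peroxiredoxins PRX1 (-1.80) and AHP1 (-1.41) fell and the flavohaemoglobin YHB1 rose (1.72 ± 0.37). YHB1 read -1.38 in the deletion and -1.16 in the wild type at 60 min, and -3.32 in the deletion and -2.65 in the wild type at 30 min, and its fitted difference of 60 min minus 0 min was -2.79 (limma, adjusted p = 0.00163). Among 28 iron regulon genes the cell wall mannoproteins FIT2 (-1.81) and FIT3 (-1.60) fell and the iron permease FTR1 (1.20) rose. Among 57 amino acid genes LYS4 (1.66) and THR1 (1.35) rose (3.51%) and the transaminase BAT2 (-1.34) fell (1.75%), shares near those of all genes. Of 33 cell wall genes TIP1 (-1.85), PIR3 (-1.38) and SED1 (-1.34) fell, of 22 autophagy and vacuolar genes the protease PEP4 (-1.45) fell, and of 29 mating genes PRM5 (-1.19) fell. No sulfate assimilation, ergosterol or unfolded protein response gene was called, of 28, 27 and 23 tested.

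**Figure D4:**
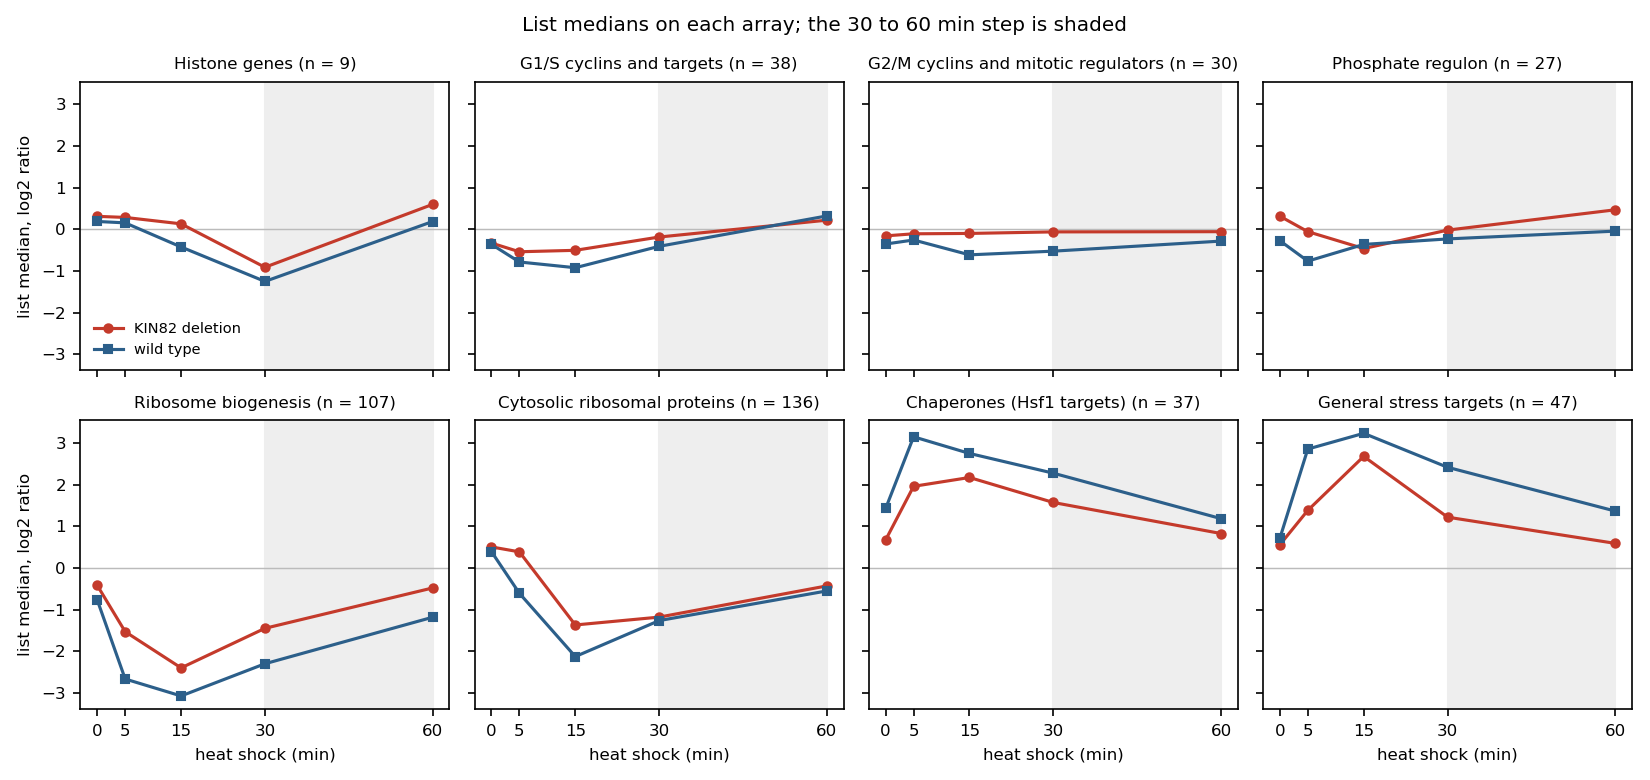
Median log2 ratio of 8 gene lists on each array against minutes of heat shock, with circles for the KIN82 deletion and squares for the wild type, 1 array per point, and the 30 to 60 min step shaded. The histone list is lowest at 30 min and back near its start at 60 min, while the ribosome lists are lowest at 15 min and the general stress list highest at 15 min.

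The histone genes gave the highest called share of any list. Of 9 tested, 8 rose (88.9%, against 2.48% of all genes), and the median change was 1.73. The genes encode the core histones of the nucleosome in divergently transcribed pairs, and HHO1 encodes the linker histone. HTA2, a histone H2A gene, read 0.59 at 60 min and -1.74 at 30 min in the deletion, and 0.52 at 60 min and -1.25 at 30 min in the wild type (2.05 ± 0.28, limma, adjusted p = 0.00298). HHF2, a histone H4 gene, read 0.31 at 60 min and -1.87 at 30 min in the deletion, and -0.01 at 60 min and -1.59 at 30 min in the wild type (1.88 ± 0.32, limma, adjusted p = 0.00556). Both strains moved by more than 1 log2 unit in both genes.

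HHT1, a histone H3 gene, read 0.90 at 60 min and -0.74 at 30 min in the deletion, and -0.03 at 60 min and -1.84 at 30 min in the wild type (1.73 ± 0.29). HTB1, a histone H2B gene, had the least of the 8 rises, reading 0.79 at 60 min and -0.64 at 30 min in the deletion, and 0.44 at 60 min and -0.53 at 30 min in the wild type (1.20 ± 0.31, limma, adjusted p = 0.0459). HTA1 (1.83 ± 0.34), HHF1 (1.73 ± 0.29), HHT2 (1.72 ± 0.31) and HTB2 (1.64 ± 0.30) lay between. HHO1 alone was not called: it read -0.09 in the deletion and 0.38 in the wild type at 60 min, and 0.04 in the deletion and -0.22 in the wild type at 30 min (0.23 ± 0.29, limma, adjusted p = 0.749). The 8 called genes form pairs of near-identical coding sequence, and probes for a pair may have measured both copies.

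The low point of the histone genes came later than that of the ribosome lists, whose medians were lowest at 15 min. The list median was 0.26 at 0 min, 0.11 at 5 min, -0.09 at 15 min, -1.29 at 30 min and 0.44 at 60 min. None of the 9 was called at 60 min against 0 min in either direction. Under quantile normalization the median was 1.82 and 7 genes were called. It was called in 4 genes without the wild-type array at 30 min, in 1 without the wild-type array at 60 min, and in 0 without either deletion array or without both arrays titled repeat, while the median change stayed between 1.52 and 1.82.

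Genes of the G1 to S transition rose in part. Of 38 tested G1/S cyclins and SBF and MBF targets, 6 rose (15.8%, against 2.48% of all genes) and 0 fell. In the list 24 had a positive step in both strains and 4 a negative one in both, with a median change of 0.63. NRM1, a corepressor of MBF, read 0.40 at 60 min and -1.12 at 30 min in the deletion, and 0.01 at 60 min and -1.85 at 30 min in the wild type (1.69 ± 0.28, limma, adjusted p = 0.00556). CLB6, an S-phase cyclin, read 0.06 at 60 min and -1.34 at 30 min in the deletion, and 0.68 at 60 min and -1.04 at 30 min in the wild type (1.57 ± 0.29, limma, adjusted p = 0.00884). CLN2, a G1 cyclin, read 0.24 at 60 min and -0.71 at 30 min in the deletion, and 0.45 at 60 min and -1.37 at 30 min in the wild type (1.38 ± 0.31, limma, adjusted p = 0.0257). In all 3 genes both strains ended above the reference.

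TOS4 (1.53 ± 0.32), the cohesin subunit MCD1 (1.38 ± 0.29) and the flap endonuclease RAD27 (1.15 ± 0.29) were the other 3. CLN1, the closest relative of CLN2, changed by 0.21 ± 0.35 (limma, adjusted p = 0.815), and CLN3, the cyclin upstream of both, by -0.11 ± 0.28 (limma, adjusted p = 0.885). CLN1 read 0.52 in the deletion and 0.19 in the wild type at 60 min, and 0.45 in the deletion and -0.17 in the wild type at 30 min. The ribonucleotide reductase gene RNR1 (0.96 ± 0.36, limma, adjusted p = 0.162) did not pass.

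The G1/S list stood higher at 60 min than at the start of the heat, with medians of -0.30 at 0 min, -0.28 at 30 min and 0.28 at 60 min. Its members called higher at 60 min than at 0 min were PCL2 (1.40), CLN2 (1.33) and MCD1 (1.25), 3 of 38, against 0.472% of all genes. PCL2, a cyclin of the kinase Pho85, read 0.47 at 60 min and -0.49 at 30 min in the deletion, and 0.33 at 60 min and -0.13 at 30 min in the wild type. That step of 0.71 ± 0.29 was not called (limma, adjusted p = 0.199). Under quantile normalization 2 of the 38 were called at 60 min against 30 min, with a median of 0.70, and without any single one of the 4 arrays 0 were.

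The G2/M list was called in a share near that of all genes. Of 30 G2/M cyclins and mitotic regulators 1 rose (3.33%, against 2.48% of all genes), the forkhead transcription factor FKH1. It read 1.11 at 60 min and 0.11 at 30 min in the deletion, and 0.53 at 60 min and -0.91 at 30 min in the wild type (1.22 ± 0.30, limma, adjusted p = 0.0407). The mitotic cyclin CLB2 changed by 0.33 ± 0.32 (limma, adjusted p = 0.653). It read -0.34 in the deletion and -0.72 in the wild type at 60 min, and -0.97 in the deletion and -0.75 in the wild type at 30 min, with the larger difference in the deletion. None of 10 genes of the MCM helicase and early G1 list was called, against 3.7% of all genes, and its median was -0.24.

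**Figure D5:**
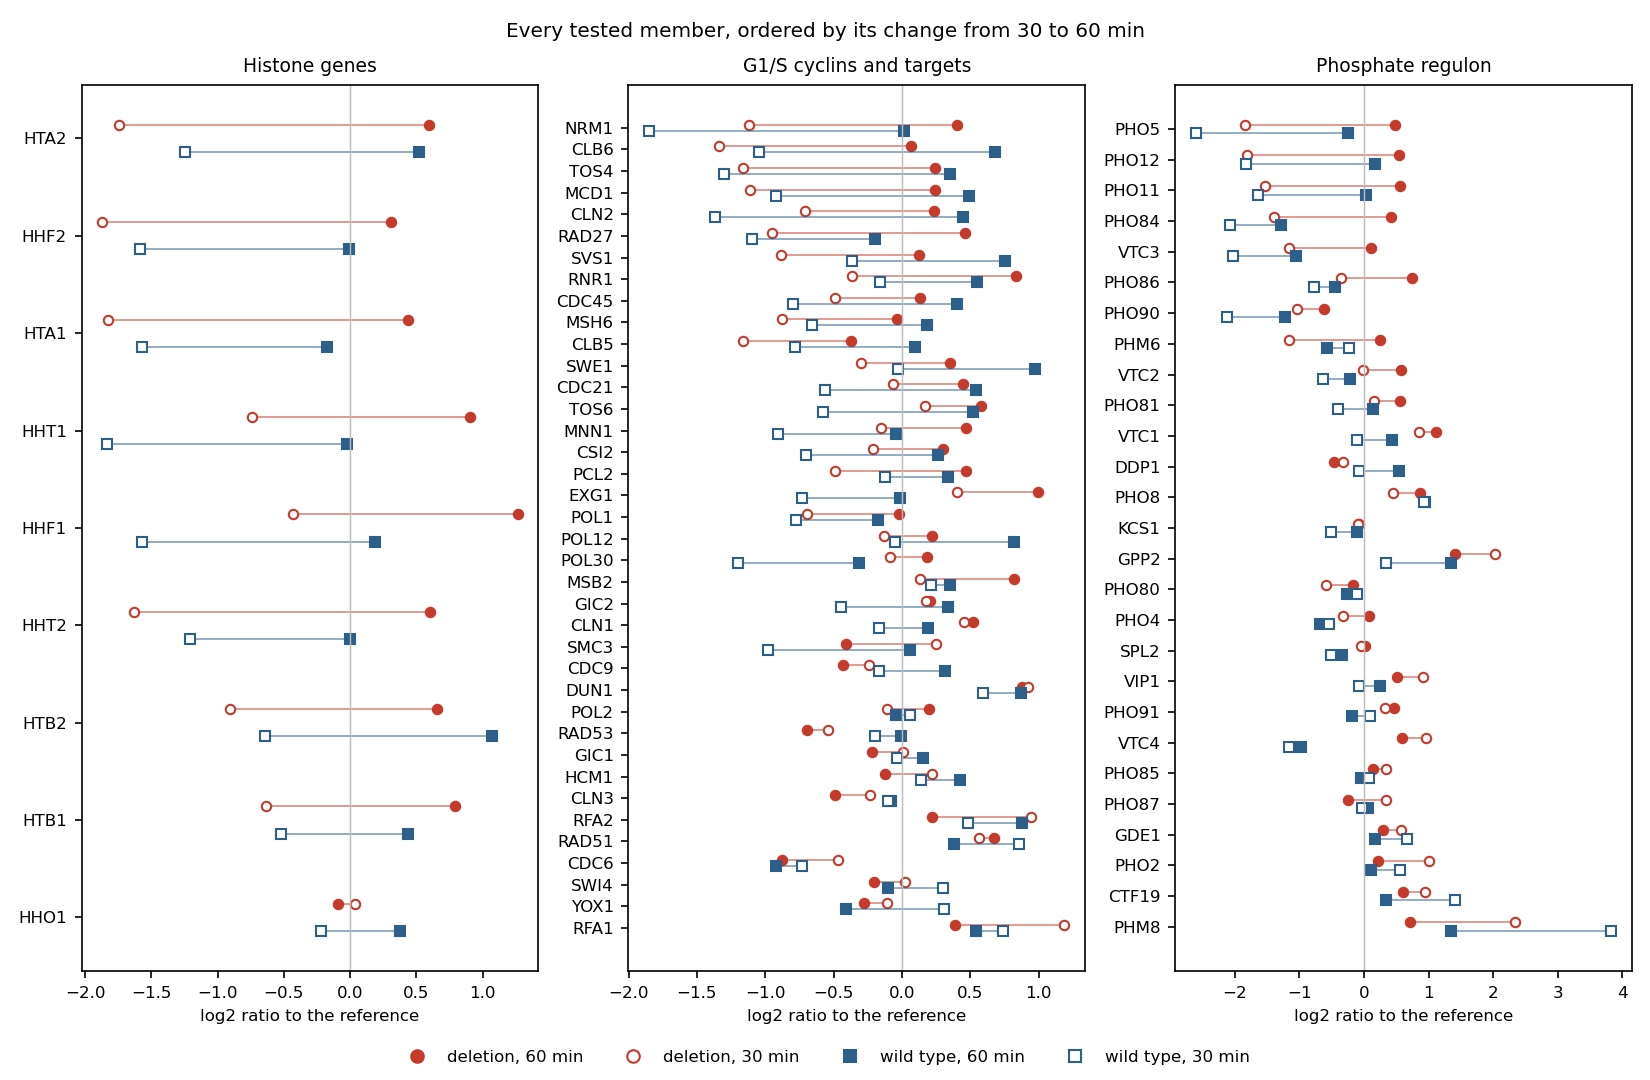
Log2 ratio to the reference of every tested histone gene (left), G1/S gene (middle) and phosphate regulon gene (right), ordered by change, with filled symbols for 60 min, open symbols for 30 min, circles for the KIN82 deletion and squares for the wild type. The 8 core histone genes shift right in both strains, the G1/S genes grade from clear rises to none, and the phosphate list has 3 acid phosphatases at its top and PHM8 alone at its foot.

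Most phosphate regulon genes were not called. Of 27 tested genes the secreted acid phosphatases PHO5, PHO12 and PHO11 rose (11.1%, against 2.48% of all genes). PHM8 alone fell (3.70%, against 1.22% of all genes), and the list median changed by 0.21. PHO5, the main phosphate-repressible acid phosphatase, read 0.48 at 60 min and -1.84 at 30 min in the deletion, and -0.24 at 60 min and -2.60 at 30 min in the wild type (2.34 ± 0.31, limma, adjusted p = 0.00298). PHO12 read 0.54 at 60 min and -1.80 at 30 min in the deletion, and 0.17 at 60 min and -1.83 at 30 min in the wild type (2.17 ± 0.39, limma, adjusted p = 0.00798). PHO11 read 0.56 at 60 min and -1.53 at 30 min in the deletion, and 0.04 at 60 min and -1.64 at 30 min in the wild type (1.88 ± 0.42, limma, adjusted p = 0.0257). The 3 ran in parallel, but PHO11 and PHO12 are near-identical and PHO5 has the close copy PHO3, so they need not be 3 separate measurements.

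Their means at 60 min were close to those at 0 min for PHO5 (0.12 at 60 min and 0.25 at 0 min) and lower for PHO12 (0.35 at 60 min and 0.998 at 0 min) and PHO11 (0.30 at 60 min and 1.14 at 0 min), without a call in any of the 3. PHM8, a nucleotidase named for its place in phosphate metabolism, read 0.71 at 60 min and 2.33 at 30 min in the deletion, and 1.35 at 60 min and 3.83 at 30 min in the wild type (-2.05 ± 0.36, limma, adjusted p = 0.00746). Its direction was that of the stress genes.

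The high-affinity phosphate transporter PHO84 read 0.42 at 60 min and -1.39 at 30 min in the deletion, and -1.29 at 60 min and -2.07 at 30 min in the wild type. That change of 1.30 ± 0.41 was not called (limma, adjusted p = 0.0943). Nor was that of VTC3, a subunit of the polyphosphate polymerase (1.13 ± 0.37, limma, adjusted p = 0.105). In all, 13 of the 27 had a positive step in both strains, against 31.3% of all genes, 5 had a negative step in both, against 32.5%, and 23 were not called. At 60 min against 0 min the only call in the list was CTF19 (1.40, limma, adjusted p = 0.043), a kinetochore gene that neighbours VTC3. Quantile normalization left 2 of the 4 calls, the adjusted p of PHO11 being 0.0687 and that of PHM8 0.0515 (limma). In the list 2 genes were called without the wild-type array at 30 min, 0 without any other single one of the 4 arrays, and 1 without both arrays titled repeat.

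Most called genes moved back from a shift that was present at 15 min. The arrays at 0 and 15 min, which the 30 to 60 min step does not use, put 540 genes higher (9.43%) and 801 lower (14%) at 15 min against 0 min. Of the 540, 59 fell between 30 and 60 min (10.9%, against 1.22% of all genes) and 0 rose, and 400 (74.1%, against 32.5%) had a negative step in both strains. Of the 801, 117 rose (14.6%, against 2.48%) and 0 fell, and 633 (79%, against 31.3%) had a positive step in both strains. Read the other way, 117 of the 142 genes that rose (82.4%) had been lower at 15 min, and 59 of the 70 that fell (84.3%) had been higher. No gene called at both moved on in the direction it had taken by 15 min. The contrasts share no array, but they share each gene's estimate of spread and the strain term of the fit. In the deletion, only the titles of the 0 and 60 min arrays bear the word repeat. A difference between runs would thus push the contrasts of that strain opposite ways, and its size was not tested. No wild-type title bears the word. The median step of the genes higher at 15 min was -0.58 in the deletion and -0.59 in the wild type. For those lower at 15 min it was 0.68 in the deletion and 0.69 in the wild type.

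The medians of these genes lay between their 15 and 0 min values at 60 min. The 0 min values helped to choose the genes, so the gap to 0 min is in part set by that choice. The genes higher at 15 min had a median of 0.19 at 0 min, 1.60 at 15 min, 1.08 at 30 min and 0.52 at 60 min. Those lower at 15 min had 0.05 at 0 min, -1.69 at 15 min, -1.10 at 30 min and -0.45 at 60 min. At 60 min against 0 min 27 genes were higher (0.472%) and 49 lower (0.856%), far fewer than at 15 min. Under quantile normalization 8 of the genes that were then higher at 15 min fell and 15 of those lower at 15 min rose.

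The 36 called genes without a call at 15 min were 25 that rose and 11 that fell. Of the 25, 7 were histone genes, 4 were G1/S genes, 1 was a ribosome biogenesis gene and 0 were ribosomal protein genes. Of the 117 that had been lower at 15 min, 1 was a histone gene, 2 were G1/S genes, 27 were ribosome biogenesis genes and 13 were ribosomal protein genes. A missing call at 15 min does not show that a gene had not moved by then: HTA1 (-0.80, limma, adjusted p = 0.1) and CLB6 (-0.68, limma, adjusted p = 0.106) were below their 0 min values without passing. The difference between the lists in this respect was not tested. Among the 11 falls were the aconitase ACO1, the citrate synthase CIT2, the alanine transaminase ALT1 and the glucose-induced degradation gene VID24.

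The step was not found to differ between the strains. Of 5730 genes 0 were called for a strain by recovery term, the step in the deletion minus that in the wild type (limma, 120 at an unadjusted p under 0.05, lowest adjusted p = 0.999). Across genes the steps of the strains correlated with r = 0.54, a description only, since the arrays share a reference and genes are not independent replicates. The term rests on 1 array per strain and time, so a miss does not show that the strains recovered alike.

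The genes of lowest unadjusted p with a more positive step in the deletion included QCR9 and RIP1, both subunits of respiratory complex III. QCR9 read 0.91 at 60 min and 1.15 at 30 min in the deletion, and -0.34 at 60 min and 2.04 at 30 min in the wild type, a difference of steps of 2.15 ± 0.55 (limma, adjusted p = 0.999). RIP1 read 1.24 at 60 min and 0.82 at 30 min in the deletion, and 0.34 at 60 min and 2.38 at 30 min in the wild type, a difference of 2.46 ± 0.65 (limma, adjusted p = 0.999). The wild-type arrays differed by more than those of the deletion in both genes, without passing the test. The others on that side were RRN5, PCT1 and FET3. On the other side were UBP5, GGA1, GAC1, SHE1 and SEC3. UBP5, a deubiquitinating enzyme, read 0.62 at 60 min and 3.73 at 30 min in the deletion, and 0.53 at 60 min and 0.38 at 30 min in the wild type, so its difference of -3.26 ± 0.97 (limma, adjusted p = 0.999) came from the deletion array at 30 min.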

How the data were processed

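Gene expression was read from 10 two-channel arrays. The authors deposited 1 value per gene and array, a log ratio of the 2 channels, here read as a log2 ratio. Its base and direction, and the dyes, scanner and normalization behind it, are not stated in the sources used here. A natural log would scale every log2 value printed by 1 factor. Sample over reference is the likely direction, since 32 of 38 chaperones in the deletion and 30 of 37 in the wild type were higher at 15 min than at 0 min. Array medians as deposited lay between -0.152 and 0.034. Symbols came from RefSeq (R64) for 5484 of 5983 genes, and 499 kept systematic names. Arrays held 5844 to 5949 values. The number of arrays limits the precision.

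Values were centred on the median of their array. Genes with values on all 4 arrays at 30 and 60 min and on at least 8 of 10 arrays were tested, 560 of the 5730 with fewer than 10 values (ENP2, NSR1, PHO5 and HXT7 among them). The model of limma 3.58.1 (R 4.3.3) over all 10 arrays held time plus strain, which pairs the arrays within strain (4 residual degrees of freedom, prior 10.9 with a prior SD of 0.31). P-values were adjusted by Benjamini-Hochberg over all tested genes, with calls under 0.05. The residual holds array noise together with any departure from additive strain and time effects, so p-values measure only that spread, which may be technical. The strain by recovery term left 3 residual degrees of freedom. Scripts were tested on simulated data.

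The text names the 10 largest called changes each way, all called cell cycle and phosphate genes with some of their other members, and the 5 genes of lowest p each way for the strain term. Of each other list it names some of the 4 members with the largest absolute change. Those of the 4 that were not called, such as the trehalose and glycogen gene PGM2 (-1.83, limma, adjusted p = 0.0942), were mostly left out. Further called members, members called against 0 min, and genes outside the lists were named after their values were seen. The members and lists were chosen with earlier results of these data known. No list was given a set test. A further cell cycle list is not reported here. Other scalings, filters and sets of arrays were tried as alternatives.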

Additional observations from a re-analysis of the deposited data

Results flagged for a closer look

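In 3 of the 30 gene lists the median steps of the strains from 30 to 60 min had opposite signs. This difference was not tested for the lists. The median step of the G2/M cyclins and mitotic regulators was -0.0445 in the deletion and 0.2285 in the wild type. That of the MCM helicase and early G1 list was -0.414 in the deletion and 0.0125 in the wild type. That of the mating pheromone response was 0.053 in the deletion and -0.179 in the wild type. Between them the 3 lists had 2 called genes, FKH1 and PRM5.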

How the results depend on the processing

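Counts of called genes depended on scaling, on the arrays fitted and on the pair term, and the cause was not tested. Against 212 calls (142 higher, 70 lower), quantile normalization gave 44 (31 higher, 13 lower), equal median absolute deviations gave 110 (80 higher, 30 lower), and the 4 arrays at 30 and 60 min alone, with 1 residual degree of freedom, gave 656 (392 higher, 264 lower) that included all 212. With the 4 arrays alone 59.8% of the calls were higher, against 67.0% in the reported fit. Without the strain as a block, so without the pairing, 0 genes were called (0 higher, 0 lower), with a lowest adjusted p of 0.0916 (limma). Leaving out 1 of the 4 arrays gave 3 to 28 calls, 2 to 18 higher and 1 to 10 lower, with the lone array at that time assumed to vary like the others. Without both arrays titled repeat 19 were called (9 higher, 10 lower). No centring, robust moderation and other filters on missing values gave 191 to 213.

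Of the genes higher at 15 min that fell and those lower at 15 min that rose, reported as 59 and 117, quantile normalization gave 8 and 15, equal median absolute deviations 19 and 49, and 4 arrays per contrast 156 and 306. The strain by recovery term gave 0 calls under each of its 5 alternatives. Of the 37 called genes followed through the alternatives none changed sign. Of these, 23 were called with quantile normalization, 35 with equal median absolute deviations, 13 without the repeat arrays, and 2 to 17 with 1 array left out.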

Other observations

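Of the 212 called genes, 101 belonged to none of the 30 lists, and the genes named here were chosen after their values were seen. They are given as single genes. FAA4, a long-chain fatty acyl-CoA synthetase, read -0.29 at 60 min and -2.44 at 30 min in the deletion, and -0.87 at 60 min and -2.94 at 30 min in the wild type (2.11 ± 0.37, limma, adjusted p = 0.00661). The plasma membrane proton pump PMA1 read 1.14 at 60 min and -0.40 at 30 min in the deletion, and 0.40 at 60 min and -0.65 at 30 min in the wild type (1.29 ± 0.32). The malic enzyme MAE1 also rose (1.71 ± 0.40). PDS5, a cohesin cofactor, rose by 1.17 ± 0.27 and RNH203, a ribonuclease H2 subunit, by 1.13 ± 0.28.

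Among the falls outside the lists, PDH1, a gene of propionate metabolism, read -0.31 at 60 min and 1.50 at 30 min in the deletion, and -0.22 at 60 min and 2.01 at 30 min in the wild type (-2.02 ± 0.41, limma, adjusted p = 0.0152). LSP1, a core eisosome protein, fell by 1.86. NCE103, 1 of the 10 largest falls, ended below its 0 min level: its mean was 2.37 at 0 min, 2.85 at 30 min and 0.64 at 60 min, and it was lower at 60 min than at 0 min by the fit (-1.72, limma, adjusted p = 0.0287).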
